A study of Mus musculus with 12 samples.

Results

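The miR-34 family was followed in liver small RNA libraries of 12 male mice. It was defined by name, as any arm of miR-34a, miR-34b or miR-34c in the deposited table, and 2 of 386 rows belonged to it, miR-34a-5p and miR-34c-5p. Of the 6 arms that the 3 hairpins can give, the other 4 (miR-34a-3p, both arms of miR-34b and miR-34c-3p) were not among the rows analysed here. The mice were wild-type sons of the C57BL/6 strain, killed in a fasted state at 12 weeks of age (postnatal day 84). Until weaning their mothers ate the control chow RM1, in which simple carbohydrates made up 7% and lipids 3% by weight, or an obesogenic diet in which these made up 10% and 20%, given with sweetened condensed milk. At weaning, on postnatal day 21, each son was put on RM1 or on the obesogenic diet. The 4 groups, with 3 libraries each, are named by the mother's diet and then the son's, with C for control and O for obesogenic: CC, CO, OC and OO.

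MicroRNAs are short RNAs that guide Argonaute proteins to messenger RNAs, mostly through the seed, bases 2 to 8 from the 5′ end. The miR-34 genes are well known as transcriptional targets of the tumour suppressor p53, and miR-34a represses cell cycle and survival genes as well as the deacetylase gene Sirt1. In liver, miR-34a has been studied in obesity, steatosis and ageing, whereas miR-34b and miR-34c, made from 1 shared transcript, are best known from multiciliated epithelia, testis and brain, together with the miR-449 family, which has the same seed as the miR-34 family.

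The RefSeq entries on GRCm38.p6 found with the seed of miR-34a-5p are shown to let this shared stretch be compared. Capitals mark the seed.
miR-34a-5p: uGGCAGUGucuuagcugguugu
miR-34b-5p: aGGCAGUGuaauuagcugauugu
miR-449a-5p: uGGCAGUGuauuguuagcuggu
miR-449c-5p: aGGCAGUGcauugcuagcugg
They lie at chr4:150068473-150068494 (plus strand), chr9:51103610-51103632 (minus strand), chr13:113037549-113037570 and chr13:113036008-113036028 (both plus strand). Of 1738 mature entries, these 4 (0.23%) had the seed GGCAGUG. Among these 4 entries miR-34a-5p was the only one with a row in the liver table, and miR-449a-5p, miR-449b and miR-449c-5p were not among its rows. Compared base by base from the 5′ end, miR-449a-5p equalled miR-34a-5p at 15 of 22 positions, the first 9 without a break, and miR-34b-5p at 11 of 22. Of the 386 rows, 322 were matched by name to a RefSeq sequence, and of the 2 members 1 was. No entry was found by name for miR-34c-5p, which is named only. Its seed was therefore not read, and the 4 entries need not be all mouse miRNAs with this seed.

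The hairpin of miR-34a is shown to place the measured arm, in capitals at bases 20 to 41.
miR-34a hairpin: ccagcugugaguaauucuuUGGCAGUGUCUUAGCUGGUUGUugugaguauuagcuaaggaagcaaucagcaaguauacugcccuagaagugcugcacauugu
It lies on the plus strand at chr4:150068454-150068555. In GENCODE vM21 on GRCm38 its last 17 bases overlap an annotated exon of the gene Gm37795 on the same strand. The miR-34c hairpin (chr9:51103034-51103110) and the miR-34b hairpin (chr9:51103562-51103645) lie 451 bases apart on the minus strand. Both are inside the protein-coding gene Btg4, which is on the opposite strand, and neither overlaps an exon of it.

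Levels are in CPM, reads per 1000000 reads of the library. Depth, read from the step between CPM values, ranged from 5.45 to 22.2 M reads per library (M for 1000000) with a median of 13.2 M. The liver marker miR-122-5p held 1.98% to 2.86% and miR-192-5p 22.1% to 29.2% of the summed values. OO replicate 3 held the highest value of 112 of 386 rows (29.0%), while the other 11 libraries held 10 to 62 each, with a median of 26. CO replicate 3, the shallowest library, held the lowest value of 158 rows. Median-of-ratios factors, which scale each library by its typical row, were lowest for CO replicate 3 (0.856) and highest for OO replicate 3 (1.10). The part of the CPM scaling in these counts of rows was not tested. Title prefixes split fully with the mothers' diet, so a factor behind them and the mothers' diet cannot be told apart. In bulk liver, fewer cells of a type and less RNA per cell cannot be told apart either. The labels do not name the litter of each son, so the spread between libraries may in part be that between littermates or technical.

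miR-34a-5p was a miRNA of middling abundance in these livers, at 39.1 ± 23.7 CPM (SD, n = 12), which ranked 179 of 386 by mean. miR-34c-5p stood at 11.03 ± 2.56 CPM and ranked 253. Levels of different miRNAs are set side by side in CPM, with no correction for how well each is captured in a library. The level of miR-34a-5p was between 1.61 and 10.8 times that of miR-34c-5p within a library, with a median of 3.55.

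In CC, miR-34a-5p stood at 29.2, 41.0 and 39.2 CPM. In CO it stood at 21.6, 46.9 and 21.3 CPM, and in OC at 34.6, 24.4 and 31.1 CPM. In OO it stood at 28.02, 42.9 and 109 CPM. The value of OO replicate 3 was far above those of the other 11 libraries, which spanned 21.3 to 46.9 CPM and overlapped between all groups.

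**Figure D1:**
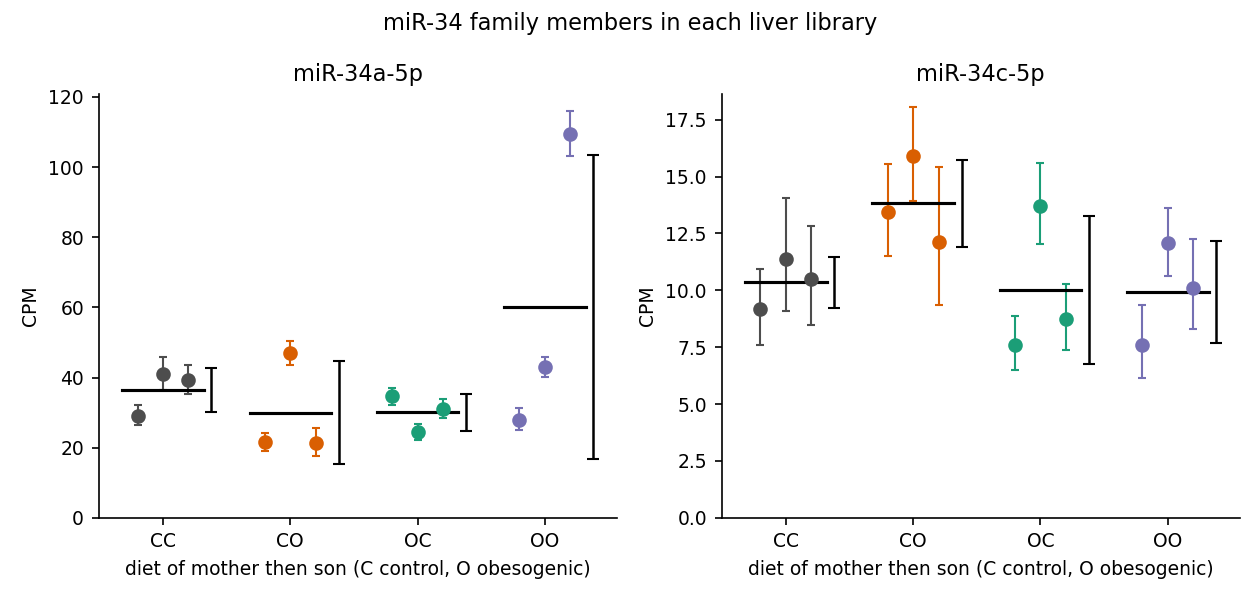
CPM of miR-34a-5p (left) and miR-34c-5p (right) in each library by diet group, the first letter for the mother and the second for the son. Points are libraries in replicate order with exact Poisson 95% intervals of their reads, horizontal lines group means and black bars to their right ± 1 SD (n = 3). OO replicate 3 stands at 109 CPM of miR-34a-5p, and the 3 CO libraries lie above the 3 CC and the 3 OO libraries for miR-34c-5p.

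Group means of miR-34a-5p were 60.1 ± 43.4 CPM in OO, 36.5 ± 6.37 in CC, 30.04 ± 5.18 in OC and 29.9 ± 14.7 in CO (SD, n = 3 each), and the values of neighbours in this order overlapped. Without OO replicate 3, the mean of OO was 35.4 ± 10.5 CPM (n = 2), below that of CC. These values rested on 116 to 1146 reads per library. Counting error alone would give a coefficient of variation of 5.38% over the 11 libraries other than OO replicate 3, and the observed one was 26.9%. Over all 12 libraries and after removal of group means, its SD on the log2 scale was 0.61, rank 22 of 386 rows, against a median of 0.24. That of miR-34c-5p was 0.28, rank 143.

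In CC, miR-34c-5p stood at 9.17, 11.4 and 10.5 CPM. In CO it stood at 13.4, 15.9 and 12.1 CPM, in OC at 7.62, 13.7 and 8.75 CPM, and in OO at 7.61, 12.1 and 10.1 CPM. All 3 CO libraries lay above all 3 of CC and, by a small margin, all 3 of OO, while OC spanned most of the range. Group means were 13.8 ± 1.92 CPM for CO, 10.3 ± 1.11 for CC, 10.03 ± 3.25 for OC and 9.94 ± 2.24 for OO, with n = 3 and SD. CO overlapped OC, through OC replicate 2, and the means of CC, OC and OO differed by less than their spread.

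The share of all rows separated in the same way was counted as a background. In CO against CC, 5.7% of all rows lay wholly higher in CO and 16.3% wholly lower. In OO against CO, 2.85% lay wholly lower in OO and 16.3% wholly higher. In the other comparisons 0 of 2 members were separated. There the share of all rows wholly higher and wholly lower was 10.4% and 5.18% in OO against OC, 4.4% and 4.4% in OC against CC, and 14% and 8.03% in OO against CC. Over 6 against 6 libraries it was 0.518% and 2.07% for the sons' diet and 0.777% and 0% for the mothers' diet. CO replicate 3 had only 66 reads of miR-34c-5p, with a 95% interval of 9.37 to 15.4 CPM. That interval covered the values of CC replicates 2 and 3 and of OO replicates 2 and 3. Within CC the coefficient of variation of miR-34c-5p was 10.7%, where counting error alone gives 10.1%, and within CO 13.9% against 9.14%.

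Marker miRNAs of several cell types were also compared between CO and CC. The highest erythroid sum, from red blood cell miRNAs, was that of a CO library. Their sum (miR-451a, miR-144-3p, miR-144-5p and the joint row of miR-486-5p) stood at 4252 to 8999 CPM in CO, 2862 to 4255 in CC, 2950 to 5242 in OC and 2943 to 4532 in OO, so that the groups overlapped. All 4 had a positive log2 change in CO against CC (median 0.43) and a negative one in OO against CO (median -0.55), though 0 of 4 passed by limma. Their part in the pattern of miR-34c-5p was not tested. The summed hepatocyte markers (5 of 5 listed) stood at 366233 to 406853 CPM in CO and 352024 to 359173 CPM in CC. These sums did not overlap, where 5.7% of all rows lay wholly higher in CO. The most abundant marker in them was miR-192-5p, at a mean of 246349 CPM. Of the 5 markers 2 had a positive log2 change and 3 a negative one, with a median of -0.04. The endothelial markers (2 of 2 listed) stood at 15584 to 22984 CPM in CO and 24304 to 27100 CPM in CC. Their sums did not overlap either, where 16.3% of all rows lay wholly lower in CO. The leukocyte markers (6 of 6 listed) stood at 2270 to 3028 CPM in CO and 2831 to 3520 CPM in CC, with overlap. The epithelial markers (6 of 6 listed) stood at 483 to 875 CPM in CO and 423 to 674 CPM in CC, with overlap. Of these, 5 of 6 had a positive log2 change in CO against CC (median 0.31). In OO against CO 4 of 6 had a negative one (median -0.14). The stellate and mesenchymal markers (5 of 5 listed) overlapped too, with a median of 0.01 in CO against CC. In CO against CC 0 of 5 hepatocyte, 0 of 2 endothelial and 0 of 6 leukocyte markers passed by limma. Nor did any of the 6 epithelial or 5 stellate and mesenchymal markers. The part of these lists was not tested either. Under alternative settings the endothelial miR-126-5p passed in CO against CC and in the interaction (1 setting each). The leukocyte miR-150-5p or miR-223-3p passed for the sons' diet (in 3 settings).

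The sons' own diet was asked about first, as the average over both maternal diets. The mean of miR-34a-5p was 45.02 ± 33.3 CPM in sons on the obesogenic diet, against 33.2 ± 6.27 CPM in those on RM1, and that of miR-34c-5p 11.9 ± 2.83 against 10.2 ± 2.18 CPM (SD, n = 6 each). Neither member passed the test, which was limma on log2(CPM + 1) with a Benjamini-Hochberg adjusted p under 0.05 over all rows. Of all rows 0.777% passed. The log2 change of miR-34a-5p was 0.20 (SE 0.31, 95% interval -0.47 to 0.87, limma adjusted p = 0.79). That of miR-34c-5p was 0.19 (SE 0.16, 95% interval -0.15 to 0.54, limma adjusted p = 0.61). The log2 change of miR-34a-5p was -0.07 without OO replicate 3 and 0.41 without OO replicate 1, and that of miR-34c-5p 0.31 without OC replicate 2.

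After control mothers, CO against CC, the members took opposite signs. The log2 change was -0.36 for miR-34a-5p (SE 0.43, limma adjusted p = 0.72) and 0.38 for miR-34c-5p (SE 0.22, 95% interval -0.10 to 0.87, limma adjusted p = 0.46). Neither passed, as against 0.777% of all rows. Leaving out CO replicate 2 put miR-34a-5p at -0.72, while leaving out CO replicate 1 put it at -0.18 and CO replicate 3 at -0.17.

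After obesogenic mothers, OO against OC, miR-34a-5p had a log2 change of 0.76 (SE 0.43, 95% interval -0.19 to 1.70, limma adjusted p = 0.79). It was 0.21 without OO replicate 3 and 1.18 without OO replicate 1. miR-34c-5p had a log2 change of 0.01 (SE 0.22, 95% interval -0.48 to 0.49, limma adjusted p = 0.99). Neither passed, and 0.518% of all rows did.

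**Figure D2:**
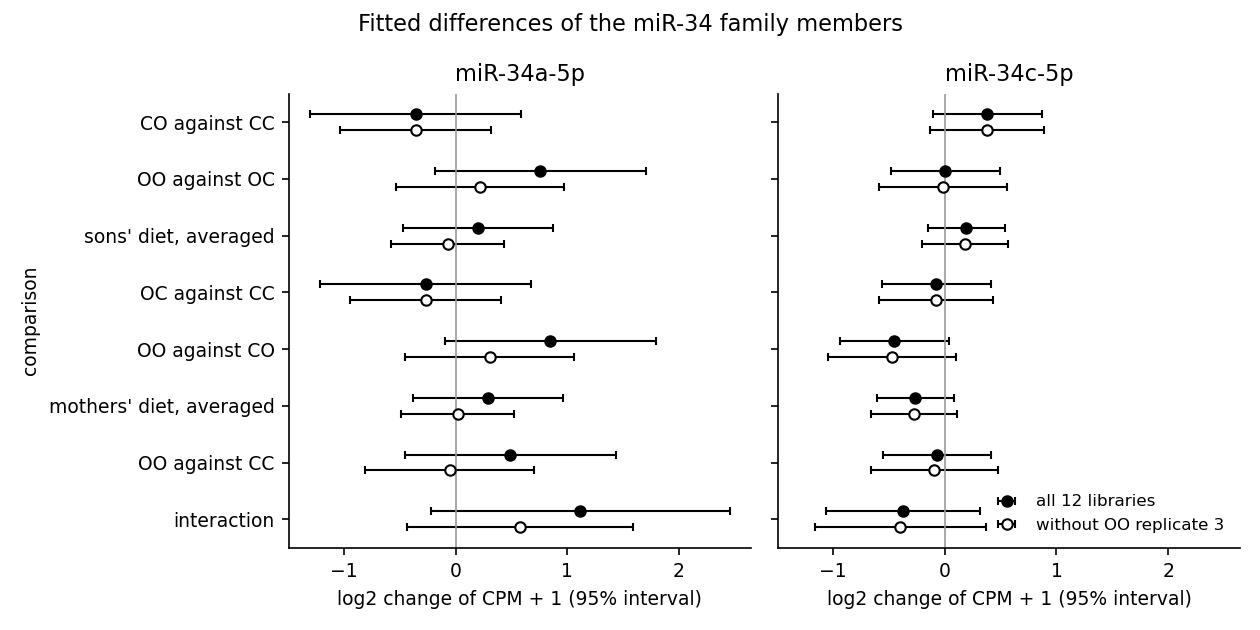
Log2 change of CPM + 1 with its limma 95% interval for miR-34a-5p (left) and miR-34c-5p (right) in each of the 8 comparisons. Filled points are the fit of all 12 libraries and open points the fit without OO replicate 3. All intervals include 0, and the open points of miR-34a-5p lie nearer to 0 in the comparisons that hold OO.

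The mothers' diet was asked about in the same way. Averaged over the sons' diet, the mean of miR-34a-5p was 45.1 ± 32.2 CPM where mothers ate the obesogenic diet, against 33.2 ± 10.7 CPM where they ate RM1, and that of miR-34c-5p 9.98 ± 2.495 against 12.1 ± 2.36 CPM (SD, n = 6 each). The log2 changes were 0.29 for miR-34a-5p (SE 0.31, limma adjusted p = 0.75) and -0.26 for miR-34c-5p (SE 0.16, 95% interval -0.61 to 0.08, limma adjusted p = 0.63). Neither member passed, and 0% of all rows did. The log2 change of miR-34a-5p was 0.02 without OO replicate 3.

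In control-fed sons, OC against CC, the log2 changes were -0.27 for miR-34a-5p and -0.08 for miR-34c-5p (limma adjusted p = 0.9999 for both), with 0% of all rows called. Without OC replicate 2 they were -0.13 and -0.30. In obesogenic-fed sons, OO against CO, the members again took opposite signs, with 0% of all rows called. miR-34a-5p had a log2 change of 0.85 (SE 0.43, 95% interval -0.10 to 1.79, limma adjusted p = 0.38), which was 0.30 without OO replicate 3. miR-34c-5p had a log2 change of -0.45 (SE 0.22, 95% interval -0.94 to 0.03, limma adjusted p = 0.37). The median of all rows in this comparison was 0.13 at the deposited scaling and 0.02 with median-of-ratios factors. Relative to that median of 0.13, miR-34a-5p lay 0.71 above and miR-34c-5p stood at -0.59.

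With both diets set against neither, OO against CC, miR-34a-5p had a log2 change of 0.49 (SE 0.43, limma adjusted p = 0.77) and miR-34c-5p of -0.07 (SE 0.22, limma adjusted p = 0.95), and 0.259% of all rows were called. The value of miR-34a-5p was -0.06 without OO replicate 3. The interaction, the change of OO against OC minus that of CO against CC, was 1.12 for miR-34a-5p (SE 0.61, 95% interval -0.22 to 2.45) and -0.38 for miR-34c-5p (SE 0.31, 95% interval -1.06 to 0.31), both with a limma adjusted p of 0.77 and with 0% of all rows called. It was 0.57 for miR-34a-5p without OO replicate 3 and -0.15 for miR-34c-5p without OC replicate 2. Comparisons that share a group share its libraries. By limma, 0 members had an unadjusted p under 0.05 in any of the 8 comparisons, and the limma-voom fit called 0 members too.

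No relation between the members was detected. Over the 12 libraries miR-34a-5p and miR-34c-5p correlated at Pearson r = -0.04 (permutation p = 0.91, adjusted 0.92 over 3 relations) and Spearman rho = -0.04 (permutation p = 0.90, adjusted 0.90). Without OO replicate 3 and CO replicate 3, the libraries farthest from the median of miR-34a-5p, r was 0.14, and after removal of group means it was 0.25. With log2 depth, r was 0.03 for miR-34a-5p (rho = 0.12, permutation p = 0.92 and 0.72) and -0.13 for miR-34c-5p (rho = -0.06, permutation p = 0.69 and 0.87), all with an adjusted p of 0.90 or 0.92. Without the 2 libraries farthest from each median these r were -0.08 and -0.28.

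The high miR-34a-5p value of OO replicate 3 was 3.52 times the median of the other 11 libraries and 2.33 times the highest of them. It rested on 1146 reads (95% interval 103 to 116 CPM). Ranked by how far OO replicate 3 lay above the highest other library, miR-34a-5p had rank 2 of 386 rows. Rank 1 was miR-582-3p, at 98.4 CPM against 6.83 to 31.2 elsewhere, and rank 3 miR-149-5p, at 281 against 50.1 to 129 CPM. miR-802-3p, the minor arm of a liver miRNA studied in obesity and glucose metabolism, stood at 345 against 89.4 to 212 CPM, and its other arm miR-802-5p at 918 against 175 to 620 CPM. These names were chosen after their values were seen. In that library 15 rows lay more than 0.5 above every other library on the log2 scale, and in each of the other libraries 0 to 5. miR-34c-5p, at 10.1 CPM, was not among the rows raised there and had rank 299.

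**Figure D3:**
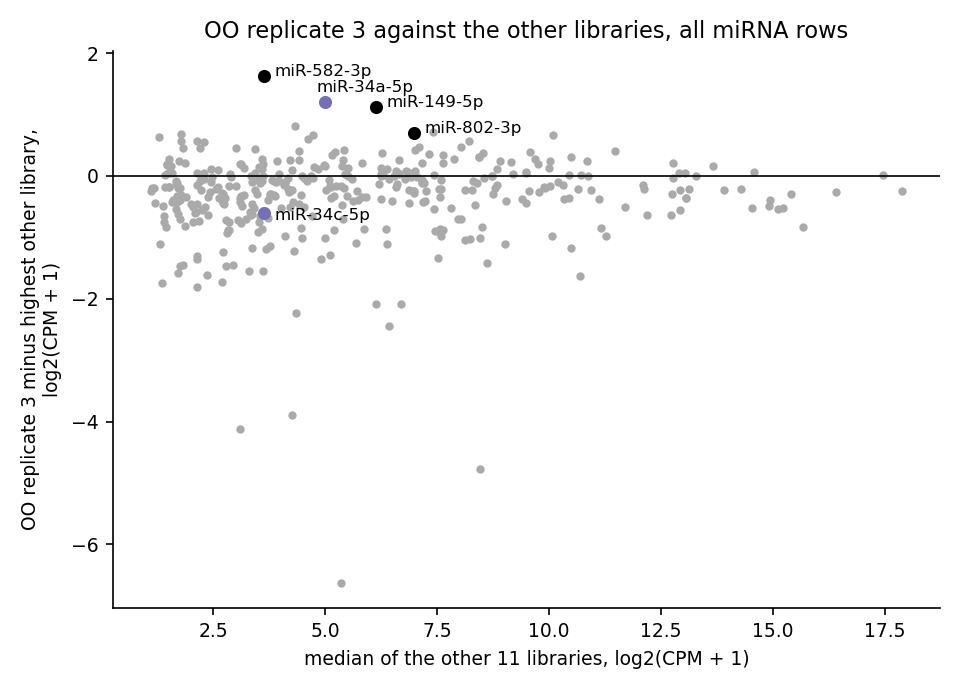
Each point is 1 of 386 miRNA rows: the horizontal axis gives the median of the other 11 libraries and the vertical axis the value of OO replicate 3 minus the highest other library, both in log2(CPM + 1). Rows above 0 are highest in OO replicate 3 (112 rows). miR-34a-5p has rank 2 from the top, and miR-34c-5p lies below 0.

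OO replicate 3 and OC replicate 2 have titles with a shared stem, whose meaning the labels do not give. The 2 libraries stood at 109 and 24.4 CPM of miR-34a-5p and at 10.1 and 13.7 CPM of miR-34c-5p, so OC replicate 2 did not share the high value.

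Cell type markers were read in the same library. The summed hepatocyte markers (5 of 5 listed) stood at 355869 CPM in OO replicate 3, inside the 336570 to 406853 CPM of the other libraries. Also inside their ranges were the epithelial markers (6 of 6 listed, 406 against 398 to 897 CPM), the leukocyte markers (6 of 6, 3352 against 2270 to 4580 CPM) and the erythroid markers (4 of 4, 4532 against 2862 to 8999 CPM). The endothelial markers (2 of 2, 24420 against 15584 to 28052 CPM) and the stellate and mesenchymal markers (5 of 5, 33759 against 31521 to 48309 CPM) also stayed inside. The multiciliated list had 1 of 4 members among the rows, miR-34c-5p itself, so it gave no separate reading. None of these summed cell type lists set OO replicate 3 apart, but single markers stood at an end of their range. The highest value of 2 of 5 stellate markers was there, beside 29.0% of all rows. The lowest value of 1 of 5 hepatocyte markers, miR-122-5p (19991 CPM against 20303 to 28851 CPM), and of 2 of 6 epithelial markers, miR-141-3p and miR-200a-3p, was there too. Of all 386 rows, 18 had their lowest value in OO replicate 3. The part of these markers in the miR-34a-5p value was not tested.

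The rows most like miR-34a-5p over the 12 libraries were found by Pearson r of log2(CPM + 1), as a description. They were miR-191-5p (r = 0.92, rho = 0.83), miR-676-5p (0.91, 0.77), miR-1981-3p (0.86, 0.64), miR-425-5p (0.85, 0.62) and miR-107-3p (0.84, 0.65). Each had its highest value in OO replicate 3, at 8481, 39.5, 46.1, 385 and 1983 CPM, and the libraries share 1 scaling. Without OO replicate 3, r stayed at 0.78 and 0.72 for miR-191-5p and miR-676-5p and was 0.55, 0.56 and 0.47 for the others, whose likeness thus rested largely on that library. Other rows were then the most alike, and miR-191-5p and miR-676-5p had ranks 5 and 9 of 385. Ranks 1 to 3, chosen after their values were seen, were miR-2137 (r = 0.93), miR-181d-5p (0.79) and miR-671-5p (0.79).

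**Figure D4:**
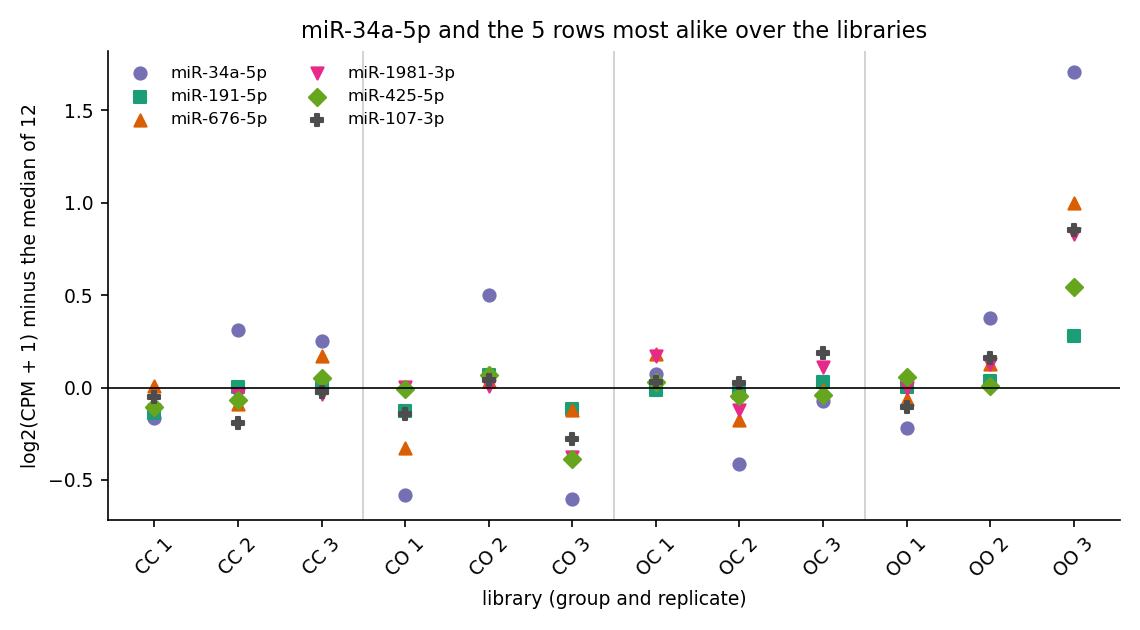
log2(CPM + 1) of miR-34a-5p and of the 5 rows with the highest Pearson r with it, each minus its median over the 12 libraries, by library. All 6 rows are highest in OO replicate 3, and over the other 11 libraries miR-34a-5p spans -0.60 to 0.50 and miR-191-5p -0.14 to 0.07.

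The mature sequences of those with a RefSeq entry are given to show that their seeds, in capitals, differ from that of miR-34a-5p.
miR-191-5p: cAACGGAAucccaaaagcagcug
miR-425-5p: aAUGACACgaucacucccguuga
miR-1981-3p: cAUCUAACccuggccuuugac
miR-107-3p: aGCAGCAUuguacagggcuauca
miR-191-5p (chr9:108568325-108568347) and miR-425-5p (chr9:108568789-108568811) are encoded close together on the plus strand. The rows least like miR-34a-5p were miR-871-3p (r = -0.85, rho = -0.83), miR-5117-3p (-0.73, -0.46) and the abundant miR-21a-5p (-0.60, -0.31). Without OO replicate 3 these r were -0.78, -0.21 and -0.06.

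The rows most like miR-34c-5p, looked up after its values were seen, were others: miR-21b (r = 0.86), miR-21c (0.78), miR-101b-3p (0.75), miR-101c (0.71) and miR-101a-3p (0.71). miR-101a-3p and miR-101c ran almost together, at means of 8424 CPM each. Such near copies may share reads, since the counting rule for reads that match several miRNAs is not given in the sources used here.

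Other miRNAs tied to p53 did not pass either. Of 11 such miRNAs outside the family, 10 were among the rows, with miR-192-5p (246349 CPM) and miR-143-3p (36163 CPM) the most abundant. In each of the 8 comparisons 0 of 10 passed by limma. For the sons' diet 5 of 10 had a positive log2 change. For the mothers' diet 6 of 10 had one, with a median of 0.14 beside 0.08 over all rows. Positive changes numbered 9 of 10 in OC against CC and 8 of 10 in OO against CC. Over all 386 rows they numbered 218 and 219 there. In CO against CC, OO against CO and the interaction 5 of 10 were positive, and in OO against OC 6 of 10. In OO replicate 3, 3 of 10 had their highest value, beside the 29.0% of all rows.

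Of 15 miRNAs studied in obese or steatotic liver, all were among the rows, led by miR-21a-5p (49286 CPM) and miR-143-3p (36163 CPM). In each comparison 0 of 15 passed by limma. Under alternative settings miR-33-5p, miR-378a-3p or both passed for the sons' diet (in 3 settings). miR-33-5p also passed for OO against OC and for OO against CC (1 setting each), and miR-335-5p for OO against CO (1 setting). The median log2 change of the 15 was 0.01 for the sons' diet and 0.10 for the mothers' diet, beside -0.02 and 0.08 over all rows. In OO replicate 3, 8 of 15 had their highest value, beside 29.0% of all rows. Another 2 of 15 had their lowest there, miR-21a-5p and miR-122-5p, beside 18 of all 386 rows. Among the 8 were miR-802-5p, miR-107-3p (1983 CPM against 907 to 1249 CPM) and miR-103-3p (1999 CPM against 1301 to 1617 CPM), the last 2 studied for insulin sensitivity. The sum of the list was lowest there, at 143114 CPM against 147893 to 170426 CPM, and its most abundant member miR-21a-5p stood at 33571 CPM against 40413 to 59538 CPM.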

How the data were processed

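Small RNA was sequenced from 12 livers (TruSeq libraries from miRNeasy extracts, per the labels' protocols). The deposited table gives CPM for 386 miRNA rows. Per the submitters' processing notes, the authors used Bowtie 1.2.3. Their reference, build and treatment of reads with several matches were not given in the sources used here. In each column the CPM were whole multiples of 1 step (100% of values, tolerance 0.001 reads), and reads, depth and exact Poisson 95% intervals were computed from that step. They cover counting error only, since reads carry no molecular identifiers.

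Groups came from the labels. Replicate numbers follow sample order and pair nothing, and litters are not named. log2(CPM + 1) of all 386 rows was fitted with limma 3.58.1 (R 4.3.3, mean-variance trend, 1 mean per group, 12 libraries) for 8 comparisons, with Benjamini-Hochberg adjustment and a threshold of 0.05. The fit was run on simulated data for the sons' diet only, with the same dispersion in all rows and no outlying library. That run does not cover rows as variable as miR-34a-5p or the comparisons of single groups. Fold changes on this scale understate those of low rows. Correlations used 100000 permutations, two-sided (scipy 1.17.1). Alternatives were pseudocounts 0.25 and 5, a mean of at least 10 CPM, TMM and median-of-ratios factors, limma-voom, only the groups compared, a depth covariate, sample quality weights and left-out libraries. Named rows were the family, miRNAs with its seed, the 5 most and 3 least alike, and members of each list that passed plus its 2 most abundant. The members and lists were chosen with earlier results of these data known.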

Additional observations from a re-analysis of the deposited data

Results flagged for a closer look

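Within each diet of the sons or of the mothers (groups of 6), a library was singled out where its gap to the nearest other was large for the group's whole range. Of 40 such groups over 10 miRNAs, 12 had one. Chance alone gives about 1 in 20, but only for independent groups, which these were not. Each library was counted both by its sons' diet and by its mothers' diet. The miRNAs outside the family were also picked by their r with miR-34a-5p, so the count cannot be compared with that rate. miR-34a-5p in OO replicate 3 (109 CPM) stood far above the other obesogenic-fed sons and the other sons of obesogenic mothers. In the same library, miR-107-3p (1983 CPM), miR-1981-3p (46.1 CPM) and miR-676-5p (39.5 CPM) stood above both of those groups. miR-191-5p (8481 CPM) and miR-425-5p (385 CPM) stood above the other sons of obesogenic mothers. At the low end, miR-191-5p in CC replicate 1 (6362 CPM) lay below the other control-fed sons, and miR-1981-3p in CO replicate 3 (19.5 CPM) below the other sons of control mothers. miR-34c-5p had no such library. The 5 miRNAs other than miR-34a-5p were picked for their likeness to it over these libraries, so their flags are not independent of its own.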

How the results depend on the processing

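Over 16 log2 changes of the members, 334 of 346 alternative values kept their sign and their side of the threshold, 12 reversed, and 0 members were called. The log2 change of miR-34c-5p in OO against OC was -0.017 with TMM and -0.033 with median-of-ratios factors. With the same factors it was 0.50 and 0.46 in CO against CC, from 0.38, and -0.60 and -0.58 in OO against CO, from -0.45. The log2 change of miR-34a-5p was -0.23 and -0.28 in CO against CC, from -0.36, and 0.69 and 0.72 in OO against CO, from 0.85. Without both libraries of the shared title stem, that of miR-34a-5p was -0.14 for the sons' diet and -0.055 for OO against CC. With each library left out in turn, miR-34a-5p ranged from -0.072 to 0.41 for the sons' diet, -0.055 to 0.91 for OO against CC and 0.21 to 1.18 for OO against OC. miR-34c-5p ranged from -0.15 to 0.23 for OO against OC, -0.30 to 0.083 for OC against CC and -0.21 to 0.092 for OO against CC. The interaction ranged from 0.57 to 1.54 for miR-34a-5p and -0.53 to -0.15 for miR-34c-5p. The correlation of the members ranged from -0.18 to 0.069. The cause was not tested.

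Calls over all miRNAs moved more. CO against CC went from 3 to 1 with TMM or only its groups, 10 with the depth covariate, and 1 to 4 with a library left out. OO against OC went from 2 to 4 with quality weights, 1 with the depth covariate or only its groups, and 0 without both stem libraries or some single ones. The sons' diet went from 3 to 7 with TMM, 8 with median-of-ratios factors, 12 with quality weights and 5 without OC replicate 2. OO against CO went from 0 to 2 without CO replicate 2, and OO against CC from 1 to 4 with quality weights and 3 without CO replicate 3. The mothers' diet and the interaction went from 0 to 1 with the depth covariate, and the mothers' diet also with quality weights. Fits with edgeR and DESeq2 were not run, since the table holds CPM. No paired analysis was possible because the replicate numbers follow sample order. Depth gave miR-34c-5p a counting error of 8.98% of its level over all libraries, against an observed spread of 23.2%.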
